A study of Mus musculus with 6 samples.

Results

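The insulin-like growth factor (IGF) genes and the genes of their binding proteins were followed across cell classes, days and conditions in healing cortical lesions of the mouse. The members were a fixed list of 10 of the 32285 genes in the count matrices: the ligands Igf1 and Igf2, the receptors Igf1r and Igf2r, and the binding proteins Igfbp2, Igfbp3, Igfbp4, Igfbp5, Igfbp6 and Igfbp7. They were chosen by name, with earlier results of these data known, and no measured value entered the rule. Nuclei came from dissected photothrombotic lesions, in which light and a dye close cortical vessels, of adult mice, taken 7 or 21 days after injury (dpi). At each day there were 3 groups, of which Ctrl was wild-type mice. Whether the Ctrl mice were given tamoxifen or a control antibody is not stated for these libraries. Tgfbr2-cKO was Col1a2(creER) Tgfbr2(flox) mice given tamoxifen before and after injury. The last group was wild-type mice given ADWA11, an antibody that blocks integrin αvβ8, weekly from the day of injury. The type II TGFβ receptor was thus targeted in Col1a2-expressing cells, which are mainly fibroblasts, while the antibody blocks an activator of latent TGFβ and is not limited to 1 cell type. Each group was 1 library of DAPI-sorted nuclei pooled from 1 male and 1 female mouse, which were not sequenced apart. No difference below was tested across animals, and ratios in nuclei called female or male from their own RNA are given as values.

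IGF1 and IGF2 are secreted growth factors that signal through the receptor tyrosine kinase IGF1R, while IGF2R, the cation-independent mannose-6-phosphate receptor, takes up IGF2 and carries lysosomal enzymes. IGF binding proteins hold the ligands in the extracellular space and can extend their life, keep them from the receptor or release them after cleavage by proteases such as PAPP-A. In the injured brain, macrophages and microglia are known sources of IGF1, and stromal and vascular cells are known sources of binding proteins.

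In mm10, Igf1 lies on chr10:87858265-87937042 on the plus strand and Igf2 on chr7:142650766-142666816 on the minus strand. Igf1r lies on chr7:67952827-68233668 and Igf2r on chr17:12682406-12769664. Igfbp2 and Igfbp5 are neighbours on chromosome 1 with converging ends, at chr1:72824503-72852474 and chr1:72857932-72874884, and 5457 bases separate them. Igfbp3 lies on chr11:7206086-7213923, Igfbp4 on chr11:99041244-99054392, Igfbp6 on chr15:102144362-102149511 and Igfbp7 on chr5:77349240-77408041. Reads in introns count toward a gene under the default settings of the counting software, so the values cover whole gene bodies. Igf1 overlaps Igf1os, Igf2 overlaps Igf2os, Igf2r overlaps Airn, and Igfbp7 overlaps Polr2b and Gm34648, all on the opposite strand, which the strand-specific droplet assay assigns apart from the members.

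Promoter windows of Igf1, Igfbp3, Igfbp5 and Igfbp6, each past 2-fold in fibroblasts both between conditions and between days, are shown because 2 of the 3 groups alter TGFβ signalling, which acts on promoters through Smad proteins. Each is the 250 bases before the RefSeq start in GRCm38.p6, written 5′ to 3′ on the gene's own strand, and capitals mark CAGAC or its reverse complement GTCTG, the longer form of the Smad binding element.

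Igf1, chr10:87860861-87861110, plus strand: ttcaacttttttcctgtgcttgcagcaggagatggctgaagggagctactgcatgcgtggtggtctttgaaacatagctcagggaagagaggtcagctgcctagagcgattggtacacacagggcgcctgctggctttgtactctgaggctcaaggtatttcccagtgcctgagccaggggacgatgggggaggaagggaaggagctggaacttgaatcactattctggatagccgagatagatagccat
Igfbp3, chr11:7213924-7214173, minus strand: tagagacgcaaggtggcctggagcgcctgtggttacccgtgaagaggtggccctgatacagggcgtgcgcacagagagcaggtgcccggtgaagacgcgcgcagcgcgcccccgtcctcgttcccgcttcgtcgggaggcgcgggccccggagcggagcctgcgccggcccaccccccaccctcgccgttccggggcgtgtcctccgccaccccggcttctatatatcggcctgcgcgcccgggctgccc
Igfbp5, chr1:72874866-72875115, minus strand: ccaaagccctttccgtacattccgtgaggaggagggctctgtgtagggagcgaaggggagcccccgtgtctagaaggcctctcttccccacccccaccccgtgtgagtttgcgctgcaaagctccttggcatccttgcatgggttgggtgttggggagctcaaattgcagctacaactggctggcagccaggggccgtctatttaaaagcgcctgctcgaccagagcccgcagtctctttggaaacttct
Igfbp6, chr15:102143936-102144185, plus strand: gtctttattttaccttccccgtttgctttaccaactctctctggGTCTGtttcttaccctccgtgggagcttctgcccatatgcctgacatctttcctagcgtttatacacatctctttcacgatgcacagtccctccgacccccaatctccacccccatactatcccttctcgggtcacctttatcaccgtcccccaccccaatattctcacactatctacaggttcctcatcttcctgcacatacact

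Of these windows, that of Igfbp6 held 1 copy of the element and those of Igf1, Igfbp3 and Igfbp5 held 0. The Igf1 window lies inside the gene span given above, so the bases before the outer end of that span were not searched. The 10 members had 14 such windows, since Igf2 and Igfbp2 have several starts, and 7 windows of 5 genes held at least 1 copy on either strand. The same letters stood in 42.2% of 32851 mouse promoter windows of this length. The letters TATAAA, searched on both strands, stood in 2 of the 14 windows, those of Igfbp4 and Igfbp6, against 12.4% of all windows. A match is a description of the letters, and its absence says only that they are not in this window.

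The 6 libraries held 7205 to 14246 barcodes and 61917 nuclei after filtering, with a median of 4601.5 to 8222.5 UMIs per barcode. Pairs of libraries shared 0.233% to 0.513% of the barcodes of the smaller one. Levels below are UMIs of a gene in counts per 1000000 non-mitochondrial UMIs (CPM), summed over the nuclei of a class in 1 library, and brackets give exact 95% intervals, which cover counting error only. Ratios are on the log2 scale, with the comparison library first, and a ratio of at least 2-fold was counted as past the threshold where both libraries had at least 10 expected UMIs and 50 nuclei. The targeted gene was no check of the genotype: summed over fibroblasts, Tgfbr2 had 230 CPM in Tgfbr2-cKO against 316 in Ctrl at 7 dpi and 184 against 220 at 21 dpi, and these UMIs include introns and the 3′ end outside the deleted part. Summed neuronal marker levels were higher in non-neuronal classes of both Tgfbr2-cKO libraries. In fibroblasts all 8 neuronal markers were found in Ctrl at 7 dpi, with a summed level of 33.8 CPM, against 258 in Tgfbr2-cKO at 7 dpi, and at 21 dpi the levels were 52.1 and 91.2 CPM. Each named neuronal cluster held most of its nuclei in Tgfbr2-cKO at 7 dpi. The largest had 1579 nuclei there, against 46 in Ctrl and 10 in ADWA11 at that day. Another, led by Drd2, had 979 there, against 0 in Ctrl and 0 in ADWA11. The part of this tissue mix and of neuronal RNA in the values below was not tested.

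At 7 dpi the fibroblast class held 1918 nuclei in Ctrl, 2525 in ADWA11 and 332 in Tgfbr2-cKO. At 21 dpi it held 4498, 3112 and 895 nuclei. Its makeup differed between libraries. At 7 dpi a myofibroblast-like cluster (Acta2, Postn, Cthrc1, Fn1) held 1027, 1157 and 135 of these nuclei. At 21 dpi Ctrl was mostly an unnamed cluster led by Slc47a2 and Slc47a1 (2103 nuclei) and an unnamed cluster led by Frmpd2 and Clstn2 (989 nuclei), ADWA11 mostly the Slc47a1 cluster (2296 nuclei), and Tgfbr2-cKO an arachnoid-like cluster (393 nuclei) and an unnamed cluster led by Gabrg3 and Ebf3 (320 nuclei), which also carried raised neuronal markers. Class ratios were therefore set beside ratios in which each sub-cluster with at least 50 nuclei in both libraries had the same weight in either one, the mean of its shares of their UMIs, called fixed-mixture ratios.

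**Figure D1:**
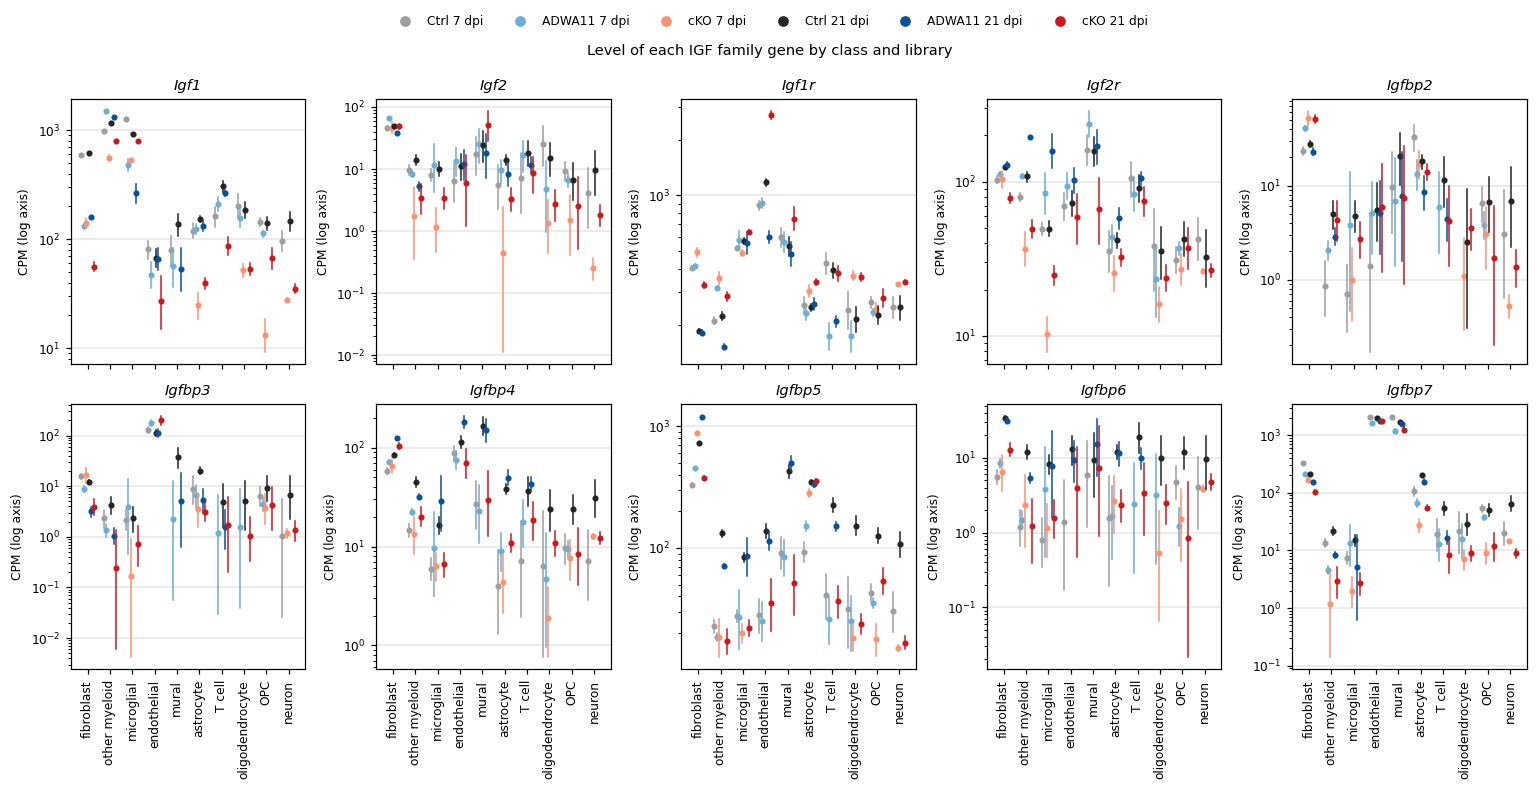
Levels of the 10 members, 1 panel per gene, by cell class (x axis) and library (colour), in CPM on a log axis with exact 95% Poisson intervals (counting error only); cKO is Tgfbr2-cKO and OPC the oligodendrocyte precursors. Igf1 is highest in myeloid classes, Igfbp7 in endothelial and mural cells, and Igfbp5 in fibroblasts.

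Igf1 UMIs came mainly from myeloid nuclei and, in the Ctrl lesions, also from fibroblasts. Over all libraries 52.2% of Igf1 UMIs came from myeloid clusters other than the microglial and dividing ones. Fibroblasts gave 16.6% and the microglial clusters 12.4%. These other myeloid clusters included unnamed ones of 4087 and 811 nuclei, in which markers of disease-associated microglia tied with those of a macrophage type. The split is therefore not one of macrophages against microglia. The fibroblast share of a library's Igf1 UMIs was 23.8% in Ctrl at 7 dpi and 45.9% in Ctrl at 21 dpi. It was 4.70% and 7.68% in ADWA11 and 3.74% and 3.72% in Tgfbr2-cKO at the same days. Such a share also follows the size of the fibroblast class, which differed between libraries as given above and was smallest in Tgfbr2-cKO. Levels per UMI are therefore given next.

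Within fibroblasts Igf1 stood at 590 CPM [579, 602] in Ctrl, 132 [128, 137] in ADWA11 and 141 [126, 158] in Tgfbr2-cKO at 7 dpi. At 21 dpi the levels were 621 [612, 630], 159 [154, 164] and 56.2 [51.1, 61.7] CPM. Both Ctrl libraries thus lay far above the other 4. A UMI of Igf1 was present in 65.2% of fibroblast nuclei of Ctrl at 7 dpi and 61.9% at 21 dpi, against 37.1% and 39.2% in ADWA11 and 21.7% and 16.5% in Tgfbr2-cKO, at median depths of 5769 to 9594 UMIs per nucleus. In T cells, which are not known as a source of Igf1, 19.5% of Ctrl nuclei at 7 dpi had a UMI at a median depth of 2847 UMIs. Against Ctrl, fibroblast Igf1 was lower in Tgfbr2-cKO by a log2 ratio of -2.06 at 7 dpi and -3.47 [-3.60, -3.33] at 21 dpi. In ADWA11 the ratios were -2.16 and -1.96. All 4 ratios kept their direction in female nuclei and in male nuclei alone, at -1.83 and -2.10, -4.29 and -3.03, -1.87 and -2.57, and -1.50 and -2.35. Between days the fibroblast ratio was 0.07 in Ctrl and 0.27 in ADWA11, and in Tgfbr2-cKO it was -1.33 [-1.54, -1.11], with -2.59 in female and -0.69 in male nuclei.

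The clusters that made up the class differed at 21 dpi. The Frmpd2 cluster had the highest Igf1 level of any large fibroblast cluster, 1346 CPM in Ctrl at 21 dpi, and gave 10304 of the 19823 fibroblast Igf1 UMIs of that library, while it held 26 nuclei in ADWA11 and 1 in Tgfbr2-cKO. In that cluster 10 myeloid markers summed to 147 CPM, against 180 CPM in all Ctrl fibroblasts at 21 dpi and 4832 CPM in macrophages of the same library. With a fixed mixture the Tgfbr2-cKO ratio at 21 dpi was -1.64, and the leptomeningeal-like cluster had a higher level there, 360 against 243 CPM, from 79 nuclei and with ratios of -1.02 in female and 1.10 in male nuclei. The other fixed-mixture ratios were -2.03 for Tgfbr2-cKO at 7 dpi, -1.87 for ADWA11 at 7 dpi and -1.35 for ADWA11 at 21 dpi. Under ADWA11, Igf1 was lower in 6 of 6 shared clusters at 7 dpi and in 4 of 4 at 21 dpi. Myofibroblast-like nuclei had 678 CPM of Igf1 in Ctrl, 162 in ADWA11 and 87.5 in Tgfbr2-cKO at 7 dpi, so the difference was also seen inside 1 named state.

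Levels of Igf1 in classes that are not known sources are given as a background. Across T cells, oligodendrocytes and oligodendrocyte precursors the levels ran from 143 to 203 CPM in Ctrl at 7 dpi and from 140 to 306 at 21 dpi, below the fibroblast levels of these libraries, and from 13.3 to 65.9 CPM in Tgfbr2-cKO at 7 dpi, also below. They ran from 113 to 212 in ADWA11 at 7 dpi, from 42.6 to 267 in ADWA11 at 21 dpi and from 53.7 to 87.3 in Tgfbr2-cKO at 21 dpi, which includes the fibroblast level in each case. In those 3 libraries fibroblast Igf1 was not above this background. No minimum of nuclei was set for these ranges, here and below. In ADWA11 at 21 dpi they rest on 1207 T cells, 23 oligodendrocytes and 39 precursors, and Tgfbr2-cKO at 7 dpi had 28 T cells.

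**Figure D2:**
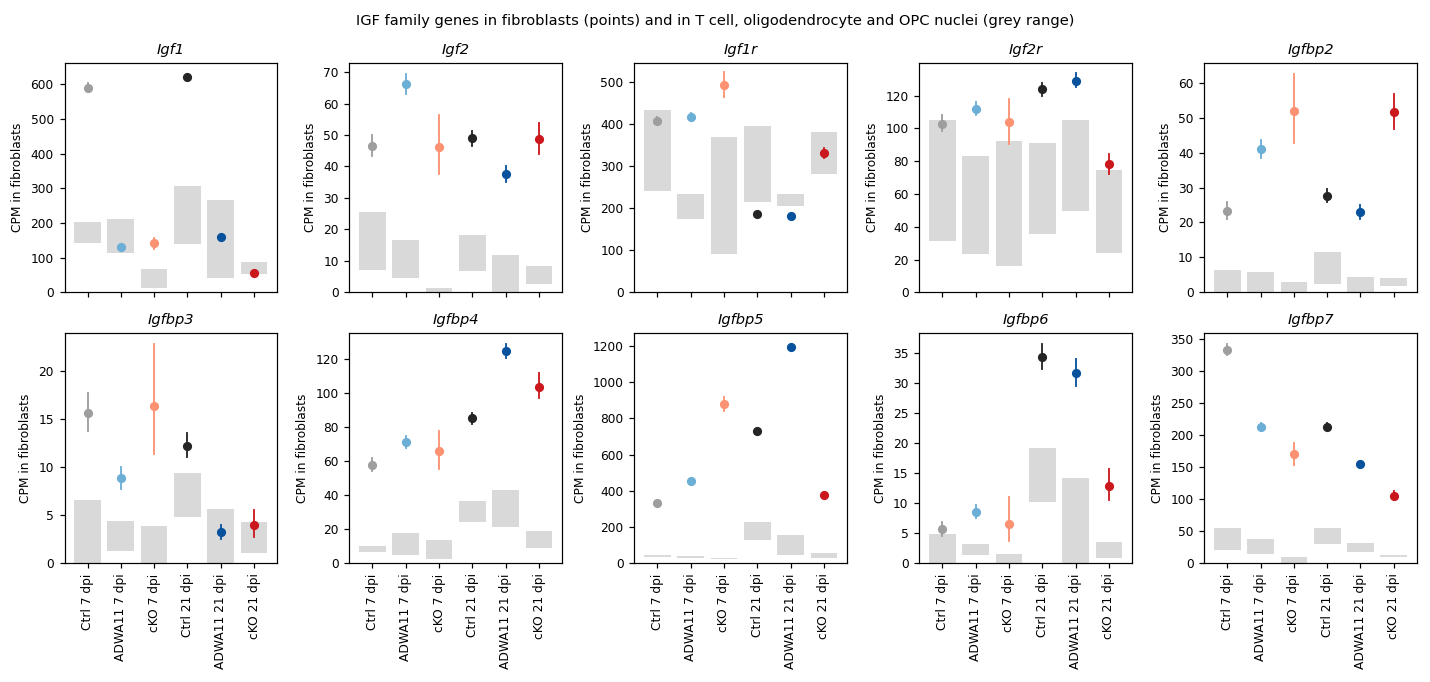
Levels of the 10 members in the fibroblast class of each library, in CPM with exact 95% Poisson intervals (counting error only), 1 panel per gene; grey bars give the range over T cells, oligodendrocytes and oligodendrocyte precursors of the same library. The grey ranges had no minimum of nuclei. Igf1 was 590 and 621 CPM in the Ctrl libraries and 56.2 to 159 CPM in the other 4.

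In the macrophage class, made of named clusters only, Igf1 lay between 944 and 1222 CPM in 5 libraries. It was lower in Tgfbr2-cKO at 7 dpi, where the class was too small for a ratio. Unnamed myeloid clusters of 4087, 2966, 912 and 811 nuclei were outside this class. Their Igf1 levels are not given here, so the values do not speak for all lesion myeloid nuclei. The macrophage class joined a lesion macrophage-like cluster (Fabp4, Cd5l, Slamf8) and a border macrophage-like cluster (Cd163, Mrc1, F13a1), with 25 and 248 nuclei of Ctrl, 740 and 639 of ADWA11 and 19 and 28 of Tgfbr2-cKO at 7 dpi, and 295 and 215, 3733 and 405, and 67 and 89 at 21 dpi. Ctrl at 7 dpi was thus mostly border cluster and ADWA11 at 21 dpi mostly lesion cluster. The marker list that named the lesion cluster also held Arg1, Plau, Lgals3 and Ms4a7, which were not raised there. Its leaders included Ciita, H2-Eb1 and H2-Aa, genes of MHC class II. The macrophage class had 1209 CPM of Igf1 in Ctrl, 1095 in ADWA11 and 331 in Tgfbr2-cKO at 7 dpi, the last from 47 nuclei. At 21 dpi the levels were 1196, 1222 and 944 CPM. The log2 ratios at 21 dpi were 0.03 [-0.03, 0.09] for ADWA11 and -0.34 [-0.45, -0.23] for Tgfbr2-cKO, both short of 2-fold, as were all ratios inside the lesion and border clusters. The microglial clusters (P2ry12, Sall1, Tmem119), the larger of which also carried neuronal genes among its leaders, had 1258, 481 and 529 CPM at 7 dpi and 917, 264 and 791 CPM at 21 dpi. There Igf1 was lower in ADWA11 by -1.39 [-1.57, -1.21] at 7 dpi and -1.80 [-2.10, -1.52] at 21 dpi, from 96 and 72 nuclei, and in Tgfbr2-cKO at 7 dpi by -1.25 [-1.31, -1.19]. Of the Ctrl microglial nuclei at 7 dpi, 1348 were in the cluster led by Csmd3 and 397 in that with neuronal leaders, which held 1669 of the 1686 in Tgfbr2-cKO. Within the latter cluster the ratio for Tgfbr2-cKO at 7 dpi was -1.55. ADWA11 had 40 and 56 nuclei in these clusters at 7 dpi. An unnamed myeloid cluster led by Hpgd held 2620 nuclei of ADWA11 and 94 of Ctrl at that day. The part of this mix in the ADWA11 ratios was not tested. The ADWA11 level at 21 dpi, 264 CPM, lay within the range of 42.6 to 267 CPM over T cells, oligodendrocytes and precursors of that library.

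Igf2, the fetal growth factor that persists in the leptomeninges, was a fibroblast transcript at low level. Its fibroblast levels at 7 dpi were 46.5 CPM in Ctrl, 66.2 in ADWA11 and 46.3 in Tgfbr2-cKO. At 21 dpi they were 48.9, 37.5 and 48.8 CPM. No comparison of the whole class reached 2-fold, and the ratios of Tgfbr2-cKO to Ctrl were -0.01 [-0.32, 0.30] and 0.00 [-0.17, 0.16]. Outside fibroblasts Igf2 was lower in Tgfbr2-cKO than in Ctrl, by -2.78 and -1.56 in the microglial clusters at 7 and 21 dpi. Myeloid clusters other than the microglial and dividing ones had -2.48, from 3 UMIs, and -2.05, and astrocytes had -2.08 at 21 dpi. For ADWA11, macrophages had -1.36 [-1.96, -0.72] at 21 dpi and endothelial nuclei 1.10 [-0.17, 2.46] at 7 dpi. At 7 dpi Igf2 across T cells, oligodendrocytes and precursors ran from 7.11 to 25.4 CPM in Ctrl and from 0 to 1.52 in Tgfbr2-cKO. In ADWA11 it ran from 4.70 to 16.6. At 21 dpi the ranges were 6.67 to 18.2, 2.53 to 8.47 and, in ADWA11, 0 to 11.8 CPM. Levels behind these ratios outside fibroblasts lay within or below them, except 1.75 CPM in the other myeloid clusters of Tgfbr2-cKO at 7 dpi, just above. The leptomeningeal-like cluster had 45.5 CPM in Ctrl at 7 dpi and 152 at 21 dpi, a log2 ratio of 1.74 [1.42, 2.07], and in Tgfbr2-cKO 49.0 and 103 CPM, a ratio of 1.07 [0.41, 1.75]. In ADWA11 it had 81.6 and 113 CPM, a ratio of 0.48 [0.12, 0.82], short of 2-fold. The Slc47a1 cluster of ADWA11 went the other way, from 96.7 CPM at 7 dpi to 33.4 at 21 dpi, a ratio of -1.53 [-1.79, -1.27] with -1.64 in female and -1.20 in male nuclei.

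Igf1r, the signalling receptor, was found in every class plotted, and its class levels were highest in endothelial cells. Endothelial nuclei had 884, 911 and 1635 CPM in Ctrl, ADWA11 and Tgfbr2-cKO at 7 dpi, the last from 33 nuclei, and 1177, 598 and 2718 CPM at 21 dpi. The Tgfbr2-cKO level at 21 dpi, from 105 nuclei, was higher than Ctrl by 1.21 [1.11, 1.31], with 0.99 in female and 0.93 in male nuclei, which are just short of 2-fold. In the largest endothelial cluster the levels were 3401 and 1314 CPM. Neuronal markers summed to 223 CPM in endothelial nuclei of Tgfbr2-cKO and 21.0 CPM in those of Ctrl at 21 dpi, and their part in the result was not tested. In fibroblasts Igf1r was 407, 417 and 493 CPM at 7 dpi and 186, 182 and 330 CPM at 21 dpi, and so was lower at the later day by -1.13 [-1.18, -1.07] in Ctrl and -1.20 [-1.25, -1.15] in ADWA11. With a fixed mixture these ratios were -0.34 and -0.51, although all 5 shared clusters in Ctrl and all 4 in ADWA11 had lower levels at 21 dpi. The leptomeningeal-like cluster, which ran from 481 to 705 CPM across libraries, was the highest large fibroblast cluster, and the Slc47a1 cluster, at 146 to 242 CPM, was among the lowest.

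Igf2r, the uptake receptor, was past 2-fold in myeloid classes, mural cells and the largest endothelial cluster, and short of it in fibroblasts. The macrophage class had 37.2 and 74.3 CPM in Ctrl and ADWA11 at 7 dpi and 92.6, 187 and 39.5 CPM in Ctrl, ADWA11 and Tgfbr2-cKO at 21 dpi. ADWA11 was higher than Ctrl by 1.00 [0.57, 1.46] at 7 dpi and 1.01 [0.81, 1.22] at 21 dpi, and the later day was higher by 1.32 [0.86, 1.81] in Ctrl and 1.33 [1.21, 1.45] in ADWA11. The mix of lesion and border clusters given above moved with these values, and its part in them was not tested. In Ctrl at 21 dpi the lesion cluster had 132 CPM of Igf2r and the border cluster 24.5. Inside the border cluster the ratio for ADWA11 was 0.60 [0.08, 1.17] at 7 dpi and -0.64 [-1.50, 0.25] at 21 dpi, and inside the lesion cluster it was 0.62 [0.41, 0.84] at 21 dpi, all short of 2-fold. Between days the border cluster gave -0.35 [-1.22, 0.48] in Ctrl and -1.59 [-2.20, -1.03] in ADWA11, and the lesion cluster 1.10 [0.96, 1.23] in ADWA11. In Ctrl the lesion cluster had too few nuclei at 7 dpi for a ratio. In the whole class Tgfbr2-cKO at 21 dpi was lower than Ctrl by -1.23 [-1.78, -0.72], a ratio of -3.03 in female and -0.32 in male nuclei, and -0.77 [-1.34, -0.23] inside the lesion cluster. In the microglial clusters Tgfbr2-cKO was lower than Ctrl at 7 dpi by -2.26 [-2.66, -1.87], at 10.3 against 49.1 CPM, and ADWA11 was higher at 21 dpi by 1.68 [1.26, 2.08]. At 7 dpi the Csmd3 cluster and that with neuronal leaders held 1348 and 397 nuclei of Ctrl and 17 and 1669 of Tgfbr2-cKO. At 21 dpi they held 46 and 1159 nuclei of Ctrl and 11 and 61 of ADWA11. The part of these mixes in the ratios was not tested. Over all myeloid clusters other than the microglial and dividing ones, macrophages included, Tgfbr2-cKO was lower than Ctrl by -1.11 [-1.51, -0.75] at 7 dpi and -1.12 [-1.35, -0.90] at 21 dpi. Dividing myeloid nuclei of Tgfbr2-cKO were lower at 7 dpi by -2.69 [-3.77, -1.78], from 10 UMIs, and the largest endothelial cluster at 21 dpi by -1.10 [-2.06, -0.26], from 13 UMIs. Mural Igf2r was 66.6 CPM in Tgfbr2-cKO and 158 in Ctrl at 21 dpi. The mural class joined a smooth muscle-like and a pericyte-like cluster, with 117 and 19 nuclei in Ctrl and 22 and 39 in Tgfbr2-cKO at 21 dpi, too few for ratios between these libraries inside either cluster. Igf2r was 155 and 172 CPM in these clusters of Ctrl and 19.7, from 2 UMIs, and 94.8 CPM in those of Tgfbr2-cKO. Fibroblast Igf2r stayed between 78.3 and 129 CPM in all 6 libraries. Airn, the antisense RNA that overlaps Igf2r, was the gene whose levels were most like those of Igf2r over 104 sums of class and library (Pearson r = 0.884).

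Among the binding proteins Igfbp5, which is made by fibroblasts and binds extracellular matrix, was past 2-fold in fibroblasts in both directions. Fibroblasts gave 70.6% of its UMIs. At 7 dpi Igfbp5 stood at 331 CPM in Ctrl, 452 in ADWA11 and 879 in Tgfbr2-cKO. At 21 dpi it stood at 733, 1198 and 378 CPM. Tgfbr2-cKO was the highest library at 7 dpi and the lowest at 21 dpi. Against Ctrl its ratio was 1.41 [1.33, 1.48] at 7 dpi, with 1.40 in female and 1.31 in male nuclei, and -0.95 [-1.01, -0.90] at 21 dpi, with -2.40 in female and -0.38 in male nuclei. From 7 to 21 dpi Igfbp5 was higher by 1.15 [1.10, 1.19] in Ctrl and 1.41 [1.37, 1.44] in ADWA11 and lower by -1.22 [-1.30, -1.13] in Tgfbr2-cKO, where male nuclei gave -0.66.

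Igfbp5 was also read inside fibroblast sub-clusters. Myofibroblast-like nuclei at 7 dpi had 275 CPM of Igfbp5 in Ctrl, 550 in ADWA11 and 1000 in Tgfbr2-cKO. Leptomeningeal-like nuclei had 629, 630 and 1031 CPM at 7 dpi and 993, 1353 and 101 CPM at 21 dpi, the last from 52 UMIs in 79 nuclei. Tgfbr2-cKO was lower than Ctrl there by -3.30 [-3.73, -2.90], with -3.67 in female and -3.50 in male nuclei. The arachnoid-like cluster had 583 CPM in Ctrl and 232 in Tgfbr2-cKO at 21 dpi, a ratio of -1.33 that was -3.88 in female and -0.58 in male nuclei. With a fixed mixture the ratio of 21 to 7 dpi was 1.01 in Ctrl, with 5 of 5 clusters higher, and 1.59 in ADWA11, with 4 of 4 higher. The genes most like Igfbp5 over the 104 sums were Serping1, the complement C1 inhibitor (r = 0.894), Sfrp4, a secreted Wnt antagonist (0.888), and Gas1 (0.881). These sums share libraries and depth, so the coefficients are descriptions.

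**Figure D3:**
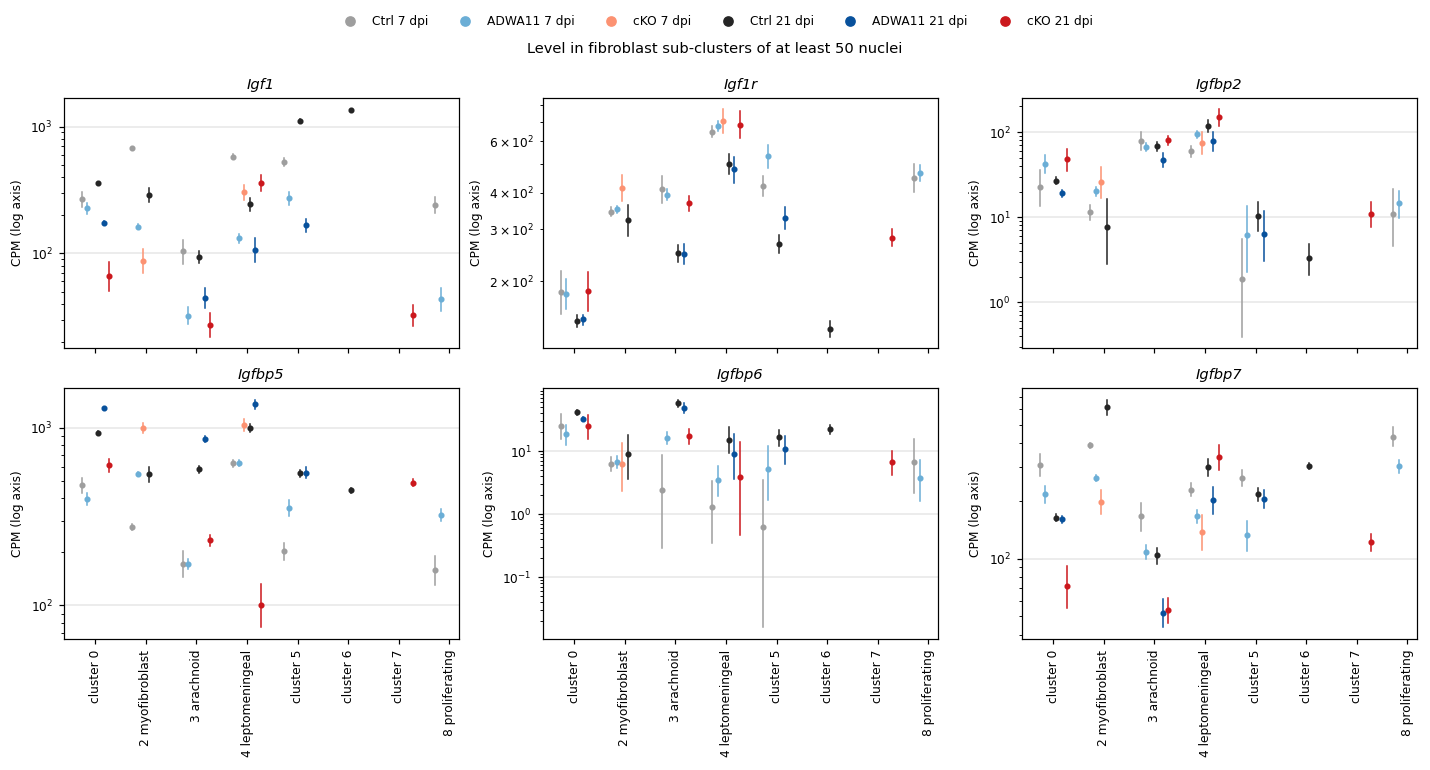
Levels of 6 members in fibroblast sub-clusters (x axis) that held at least 50 nuclei of a library (colour), in CPM on a log axis with exact 95% Poisson intervals; cKO is Tgfbr2-cKO, cluster 0 the Slc47a1 cluster, cluster 6 the Frmpd2 cluster and cluster 7 the Gabrg3 cluster. For Igfbp5 the leptomeningeal-like cluster had 101 CPM in Tgfbr2-cKO at 21 dpi and 629 to 1353 CPM in the other 5 libraries.

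Igfbp2, which binds IGF2 with preference, was highest in arachnoid-like and leptomeningeal-like nuclei, at 47.1 to 149 CPM across libraries, and was also found in astrocytes. In the whole fibroblast class it had 23.3 CPM in Ctrl, 40.9 in ADWA11 and 51.9 in Tgfbr2-cKO at 7 dpi. The 21 dpi libraries had 27.7, 23.0 and 51.5 CPM. Tgfbr2-cKO was higher than Ctrl by 1.15 [0.84, 1.46] at 7 dpi, from 1.74 in female and 0.25 in male nuclei, and by 0.89 [0.72, 1.07] at 21 dpi. With a fixed mixture the first ratio was 0.63, short of 2-fold. Astrocytes had 32.5 and 13.2 CPM in Ctrl and ADWA11 at 7 dpi and 18.1 and 8.62 CPM at 21 dpi, so that ADWA11 was lower by -1.30 [-2.02, -0.60] and -1.07 [-1.76, -0.44]. Gjb6 and Gjb2, gap junction genes, and Aox3 were most like Igfbp2, with r from 0.830 to 0.834.

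Igfbp3, the main carrier of IGFs in blood, had its highest levels in endothelial nuclei, with 128, 180 and 143 CPM at 7 dpi and 113, 111 and 201 CPM at 21 dpi in Ctrl, ADWA11 and Tgfbr2-cKO. Endothelial nuclei held 27.2% of its UMIs and 1.31% of all UMIs, while fibroblasts, a far larger class, held 33.2% of its UMIs and 23.4% of all. The class joined clusters whose ratios differed in direction. In Ctrl the 2 largest endothelial-like clusters held 130 and 61 nuclei at 7 dpi and 301 and 35 at 21 dpi. The larger had 25.7 CPM at 7 dpi and 130 at 21 dpi, a log2 ratio of 2.34 [1.69, 3.05] with 3.02 in female and 1.85 in male nuclei, while the class ratio was -0.17 [-0.48, 0.13]. At 7 dpi this cluster had 52.1 CPM in ADWA11, higher than Ctrl by 1.02 [0.11, 1.93]. The smaller had 259 CPM at 7 dpi and 99.2 at 21 dpi in ADWA11, a ratio of -1.38 [-1.88, -0.92] with -3.96 in female and 0.13 in male nuclei. Fibroblast levels were low, 15.6, 8.80 and 16.4 CPM at 7 dpi and 12.2, 3.17 and 3.91 CPM at 21 dpi. At 21 dpi both Tgfbr2-cKO (-1.64 [-2.22, -1.11]) and ADWA11 (-1.94 [-2.31, -1.59]) were lower than Ctrl. Their levels lay within the range over T cells, oligodendrocytes and precursors of the same library, 1.04 to 4.22 CPM and 0 to 5.63 CPM. In ADWA11 that range rests in part on 23 oligodendrocytes and 39 precursors, while its 1207 T cells had 1.57 CPM, below the fibroblast level. Between days the fibroblast ratio was -2.07 [-2.81, -1.33] in Tgfbr2-cKO and -1.47 [-1.87, -1.09] in ADWA11, and with a fixed mixture the latter was 0.49, from clusters that held 98.4% of the nuclei at 21 dpi and 47.1% at 7 dpi. The arachnoid-like cluster stood out in Ctrl at 21 dpi with 51.0 CPM, against 9.64 CPM in Ctrl at 7 dpi, 16.5 in ADWA11 and 7.31 in Tgfbr2-cKO at 21 dpi.

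Igfbp4, a binding protein that PAPP-A cleaves, was found in stromal, vascular and border macrophage-like nuclei and did not reach 2-fold in the fibroblast class as a whole. Its fibroblast levels were 57.9, 71.1 and 65.9 CPM at 7 dpi and 85.2, 125 and 104 CPM at 21 dpi in Ctrl, ADWA11 and Tgfbr2-cKO. Inside fibroblast sub-clusters it did. ADWA11 was higher than Ctrl at 21 dpi by 1.36 [1.04, 1.69] in leptomeningeal-like nuclei, with 1.21 in female nuclei and past 2-fold also in male nuclei. Between days the Slc47a1 cluster was higher by 1.29 [0.73, 1.91] in Ctrl, with 2.36 in female and 0.16 in male nuclei, and by 1.23 [0.93, 1.56] in ADWA11. Myofibroblast-like nuclei were higher by 1.18 [0.78, 1.56] in Ctrl, and leptomeningeal-like nuclei by 1.01 [0.77, 1.24] in ADWA11. The border macrophage-like cluster had 47.3 CPM in Ctrl and 46.7 in ADWA11 at 7 dpi and 102 and 142 CPM at 21 dpi, above the fibroblast levels of the same libraries at the later day. Its ratios between days were 1.11 [0.59, 1.63] and 1.60 [1.33, 1.88]. Igfbp4 was also higher at 21 dpi across T cells, oligodendrocytes and precursors. There it ran from 6.34 to 9.61 CPM in Ctrl at 7 dpi and from 23.9 to 36.5 at 21 dpi. In ADWA11 it ran from 4.70 to 17.8 CPM and then from 21.3 to 43.1 CPM. In mural cells, the pericytes and smooth muscle of vessels, it was 27.2 and 22.7 CPM in Ctrl and ADWA11 at 7 dpi and 167, 151 and 29.6 CPM in Ctrl, ADWA11 and Tgfbr2-cKO at 21 dpi. The later day was higher by 2.62 [1.80, 3.54] in Ctrl and 2.74 [1.76, 3.87] in ADWA11, and Tgfbr2-cKO at 21 dpi was lower than Ctrl by -2.50 [-3.75, -1.46], from 8 UMIs. Smooth muscle-like nuclei, the larger part of the Ctrl class and the smaller part of the Tgfbr2-cKO class, gave 86 of the 90 Ctrl UMIs at 21 dpi, at 186 CPM, and in Tgfbr2-cKO 6 UMIs, at 59.1 CPM from 22 nuclei, so the difference in mix cannot be told apart from a difference in level here. Inside this cluster the later day was higher by 2.91 [2.03, 3.92] in Ctrl and 2.64 [1.66, 3.77] in ADWA11. Fibroblast markers moved with these mural values: 8 such markers summed to 2107, 2283, 3097, 2858 and 625 CPM in the same 5 libraries, and their part in the result was not tested.

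Igfbp6, which prefers IGF2, was the member with the largest ratio between days in fibroblasts of Ctrl and of ADWA11, and not of Tgfbr2-cKO. Fibroblasts had 5.56, 8.49 and 6.54 CPM at 7 dpi and 34.4, 31.7 and 12.9 CPM at 21 dpi in Ctrl, ADWA11 and Tgfbr2-cKO. The ratio of 21 to 7 dpi was 2.63 [2.32, 2.95] in Ctrl, 1.90 [1.68, 2.12] in ADWA11 and 0.97 [0.16, 1.90] in Tgfbr2-cKO, and Tgfbr2-cKO was lower than Ctrl at 21 dpi by -1.42 [-1.73, -1.13]. With a fixed mixture the Ctrl ratio was 1.27. Igfbp6 was also higher at 21 dpi in Ctrl outside fibroblasts, by 3.33 [2.51, 4.26] in myeloid clusters other than the microglial and dividing ones. The ratio of Igfbp6 was 3.37 [2.29, 4.66] in the microglial clusters, 2.94 in astrocytes, from 2 UMIs at 7 dpi, and 3.02 [2.80, 3.26] over all nuclei. Across T cells, oligodendrocytes and precursors of Ctrl it ran from 0 to 4.81 CPM at 7 dpi, just below the fibroblast level, and from 10.1 to 19.2 CPM at 21 dpi. Tgfbr2-cKO at 21 dpi was also lower than Ctrl outside fibroblasts, by -3.31 [-4.97, -2.04] in the same myeloid clusters. The microglial clusters had -2.38, astrocytes -2.36, all nuclei -2.24 and T cells -2.50, the last from 4 UMIs. Inside fibroblasts the Slc47a1 cluster had -0.72 [-1.39, -0.12], short of 2-fold, and the arachnoid-like cluster -1.72 [-2.17, -1.29]. The arachnoid-like cluster went from 2.41 CPM, on 2 UMIs, to 57.5 CPM in Ctrl, a ratio of 4.58 [2.71, 7.63]. It went from 16.3 to 48.3 CPM in ADWA11 and had 17.5 CPM in Tgfbr2-cKO at 21 dpi. Slc47a1, a cation transporter of the late fibroblast cluster, was most like Igfbp6 (r = 0.813).

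Igfbp7, a binding protein of vascular basement membranes with low affinity for IGFs, had its highest levels in vessels. Endothelial nuclei held 21.7% of its UMIs and 1.31% of all UMIs, and mural nuclei 6.93% and 0.491%. Endothelial levels were 2077, 1620 and 1147 CPM at 7 dpi and 1989, 1738 and 1742 CPM at 21 dpi, and mural levels were 2029, 1196 and 1285 and then 1666, 1574 and 1254 CPM, in Ctrl, ADWA11 and Tgfbr2-cKO. None of the ratios that could be formed in these classes was past 2-fold. In fibroblasts Igfbp7 was 333, 213 and 170 CPM at 7 dpi and 213, 154 and 105 CPM at 21 dpi. Tgfbr2-cKO was lower than Ctrl by -0.97 [-1.13, -0.82] at 7 dpi and -1.02 [-1.13, -0.92] at 21 dpi, the latter -1.72 in female and -0.68 in male nuclei, and -0.78 with a fixed mixture. The collagen IV genes Col4a2 (r = 0.939) and Col4a1 (0.918), which encode the network of basement membranes, were among the 3 genes most like Igfbp7.

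**Figure D4:**
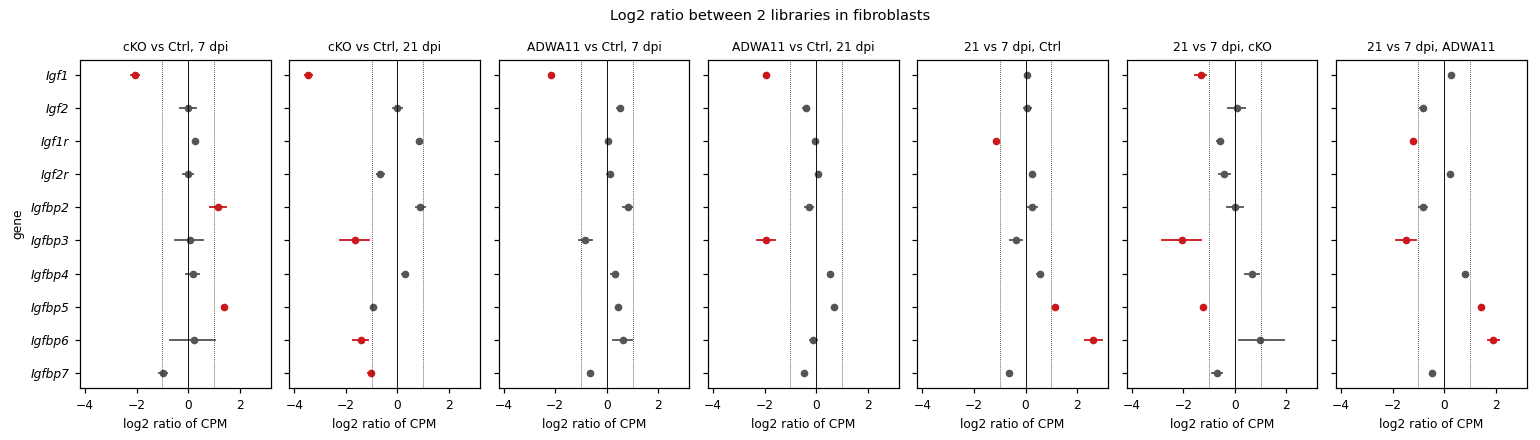
Log2 ratios of the 10 members in the fibroblast class for the 7 comparisons, with exact conditional 95% intervals (counting error only), dotted lines at 2-fold and red points where the threshold was passed; cKO is Tgfbr2-cKO. Igf1 lies from -1.96 to -3.47 in the 4 comparisons with Ctrl, and Igfbp5 at 1.15 and 1.41 between days in Ctrl and ADWA11 and at -1.22 in Tgfbr2-cKO.

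Counted over the list, all 10 members passed the minimum in fibroblasts in all 7 comparisons. For Tgfbr2-cKO against Ctrl, 3 members were past 2-fold at 7 dpi, where 7.69% of all genes tested were, and 4 at 21 dpi, where 14.3% were. For ADWA11 against Ctrl it was 1 member at 7 dpi (9.32% of genes) and 2 at 21 dpi (7.26%). Between days it was 3 in Ctrl (19.7%), 3 in Tgfbr2-cKO (11.7%) and 4 in ADWA11 (20.1%). The count for Tgfbr2-cKO between days was 0 in male nuclei, and that for ADWA11 was 2 with a fixed mixture. The median log2 ratio of the members ran from -0.805 for Tgfbr2-cKO at 21 dpi to 0.205 for ADWA11 at 7 dpi, and that of all genes from -0.0432 to 0.0783. With 10 members these counts describe the list only, and the comparisons share libraries, so they are not separate evidence.

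Over the fibroblast, macrophage, endothelial, mural and astrocyte classes together, Tgfbr2-cKO at 21 dpi had 19 of 38 member values past 2-fold, 18 of them lower, where 11.6% of all gene and class values were past it and 6.17% were lower. At 7 dpi 6 of 16 values from fibroblasts and astrocytes were past it (12.7%). ADWA11 had 4 of 37 (8.10%) at 7 dpi and 7 of 43 (6.37%) at 21 dpi. Between days 14 of 43 values were past 2-fold in Ctrl (15.5%), 5 of 17 in Tgfbr2-cKO (10.7%) and 15 of 44 in ADWA11 (16.5%), and 13 of the 14 and 13 of the 15 were higher at 21 dpi (11.0% and 10.5% of all values). Values of one gene in several classes of a library are not independent.

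Outside fibroblasts the levels of binding proteins were set beside those of fibroblast markers. The summed level of 8 fibroblast markers in T cells was 788, 517 and 65.9 CPM in Ctrl, ADWA11 and Tgfbr2-cKO at 7 dpi, the last from 28 nuclei, and 1699, 909 and 104 CPM at 21 dpi. In astrocytes it was 776, 543 and 82.3 and then 1361, 994 and 99.0 CPM. The marker level was thus lowest in Tgfbr2-cKO at both days. Igfbp5 across T cells, oligodendrocytes and precursors ran from 126 to 224 CPM in Ctrl, from 42.6 to 151 in ADWA11 and from 23.7 to 54.0 in Tgfbr2-cKO at 21 dpi, and Igfbp7 from 29.0 to 53.7, from 16.7 to 31.0 and from 8.47 to 11.8 CPM. Endothelial Igfbp5, for example, was 138 CPM in Ctrl and 35.2 in Tgfbr2-cKO at 21 dpi, a ratio of -1.97 [-2.75, -1.28], while the markers there summed to 1129 and 93.7 CPM. The part of the markers' source in these values was not tested.

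Astrocyte Igfbp5 was past 2-fold at 7 dpi in the direction opposite to the fibroblast markers. At 7 dpi it was 92.7 CPM in Ctrl, 152 in ADWA11 and 284 in Tgfbr2-cKO. By 21 dpi the values were 348, 335 and 357 CPM. Tgfbr2-cKO was higher than Ctrl at 7 dpi by 1.62 [1.33, 1.91], with 1.89 in female and 1.38 in male nuclei, while fibroblast markers were lower there, and the ratio at 21 dpi was 0.03 [-0.04, 0.11]. The astrocyte class was 1 cluster, but clustering on log-normalised counts split astrocytes into a pair of clusters. At 7 dpi these held 252 and 12 nuclei of Ctrl and 99 and 279 of Tgfbr2-cKO, so the ratio compares astrocytes of different makeup, and its part in the value was not tested. Neuronal markers summed to 490 CPM in these Tgfbr2-cKO astrocytes and 83.2 CPM in the Ctrl ones at 7 dpi. Neurons of that Tgfbr2-cKO library had 15.2 CPM of Igfbp5, and the part of neuronal RNA in the astrocyte value was not tested. Between days Ctrl was higher by 1.91 [1.64, 2.19] and ADWA11 by 1.14 [0.97, 1.32]. Astrocyte Igf1 was lower in Tgfbr2-cKO, at 24.8 against 120 CPM at 7 dpi and 39.5 against 154 CPM at 21 dpi, and all 4 levels lay below or within the range over T cells, oligodendrocytes and precursors of the same library. In mural cells at 21 dpi Igf1 had 0 UMIs in 61 Tgfbr2-cKO nuclei, which allows up to 11.1 CPM (3 UMIs), against 137 CPM in Ctrl, where all 74 UMIs were in smooth muscle-like nuclei. Only 22 of the 61 nuclei were of that cluster. The mural Ctrl level also lay just below the range over T cells, oligodendrocytes and precursors of that library, 140 to 306 CPM.

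**Figure D5:**
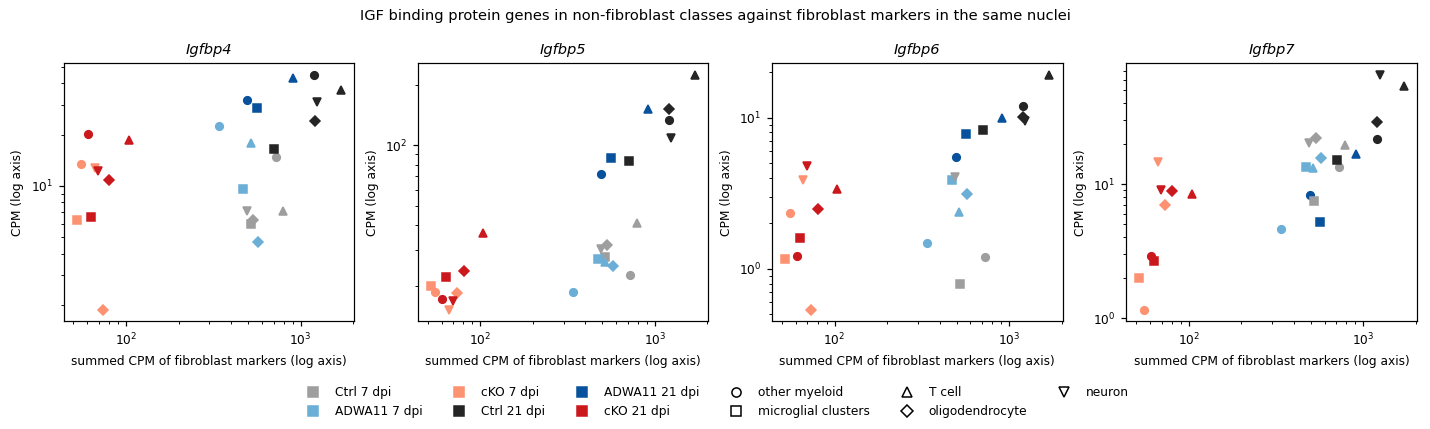
Levels of Igfbp4, Igfbp5, Igfbp6 and Igfbp7 in CPM (y axis, log) against the summed CPM of 8 fibroblast markers (x axis, log) in the same nuclei of 5 non-fibroblast classes (marker shape) and 6 libraries (colour; cKO is Tgfbr2-cKO). In T cells the markers run from 104 CPM in Tgfbr2-cKO to 1699 CPM in Ctrl at 21 dpi. Points share libraries, and levels of 0 or from fewer than 50 nuclei are not drawn.

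Other genes of the IGF pathway were described by the same rule from a list of 28. Their values, here and in the next paragraph, are for the whole fibroblast class, whose makeup differed between libraries. No fixed-mixture ratios were formed for them, and the part of this makeup was not tested. In fibroblasts of Tgfbr2-cKO against Ctrl, 1 of 20 genes that passed the minimum was past 2-fold at 7 dpi, against 7.69% of all genes, and 7 of 23 were at 21 dpi, 4 higher and 3 lower, against 14.3%. Grb14, an adaptor that restrains insulin receptor signalling, was lower at both days, 19.2 against 67.8 CPM and 11.3 against 49.3 CPM. At 21 dpi Igf2bp2, an RNA-binding protein of Igf2 mRNA, was higher (114 against 31.9 CPM), and Htra3, a protease of binding proteins, was lower (17.0 against 80.3 CPM). H19, the imprinted noncoding neighbour of Igf2, was lower by -2.17 [-2.63, -1.74] and Insrr, an orphan receptor of the insulin receptor family, was higher (3.91 against 1.57 CPM).

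ADWA11 had 2 of 26 pathway genes past 2-fold at 7 dpi, against 9.32% of all genes, Grb14 (21.3 against 67.8 CPM) and Pappa2 (1.99 against 4.17 CPM), both lower. At 21 dpi it had 2 of 25, against 7.26%, with Igf2bp2 higher at 89.0 against 31.9 CPM and Insrr lower at 0.782 against 1.57 CPM. Between days H19 was lower in all 3 conditions, from 141 to 26.1 CPM in Ctrl, from 112 to 23.7 in ADWA11 and from 84.6 to 5.80 in Tgfbr2-cKO, and 6 of 26, 8 of 26 and 3 of 21 genes were past 2-fold, against 19.7%, 20.1% and 11.7% of all genes. Igf2bp1, an oncofetal RNA-binding protein, was near 0 at 21 dpi, going from 2.96 to 0.125 CPM in Ctrl and from 3.27 to 0.371 in ADWA11. Stc1, a secreted inhibitor of PAPP-A, went from 1.21 to 0.470 and from 2.14 to 0.371 CPM in the same conditions. Pappa, which cleaves Igfbp4, was higher at 21 dpi by 1.43 [1.34, 1.51] in ADWA11 and 1.14 [0.93, 1.35] in Tgfbr2-cKO, and its relative Pappa2 went from 2.34 to 10.1 CPM in Tgfbr2-cKO.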

How the data were processed

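The authors deposited UMI counts per gene and nucleus for 6 libraries of sorted nuclei, aligned to mm10 (Cell Ranger 7.2.0 per the file headers, 7.1.0 per the labels). The lowest and highest 2.5% of barcodes by UMIs or genes in each library were left out. Nuclei were clustered in R 4.3.3 with Seurat 5.3.0 on SCTransform residuals (sctransform 0.4.2) of 3000 variable genes, 30 dimensions and a resolution of 0.5, without the members, pathway genes, mitochondrial and sex-linked genes. Fibroblast, myeloid and vascular nuclei were clustered again at resolutions of 0.2, 0.25 and 0.25.

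A cluster was named where at least 3 markers of a type were raised 2-fold and found in at least 5% of its nuclei. Rules for sub-clusters were set after the clusters were seen, and since the names were rebuilt they may differ from the study's. Fibroblast sub-clusters with myeloid genes, and the sub-cluster that passed the naming rule for osteoblasts, were left out of the class. An unnamed sub-cluster with raised Ibsp, Sp7, Alpl and Runx2 but no osteoblast gene among its leaders stayed in it (1090 nuclei, 495 of them in Ctrl at 21 dpi), and the microglial clusters are given as clusters, not as a named type. Simulated-doublet scores, with a rate of 0.8% per 1000 barcodes, called 5825 of 61917 nuclei (9.41%, 5.76% to 11.4% per library). Clusters with over 50% called were left out, and other called nuclei stayed.

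Non-mitochondrial counts were summed per class and library and given as CPM with exact Poisson 95% intervals, and ratios with exact conditional binomial intervals. Each group was 1 library, so no test between groups was made. Nuclei were called female or male where a UMI of Xist or of a Y-linked gene, and not of the other, was found. The 3 genes most like each member were ranked by Pearson r of log2(CPM + 1) over class and library sums, among genes with at least 1000 UMIs. All 10 members are named, with at most 5 pathway genes per comparison, largest change first. Of 32285 features, 32158 matched GENCODE M21, which gave positions. Scripts were tested on simulated data. The alternatives tried were other clustering, doublet, depth and UMI limits, other scalings (edgeR 4.0.16 TMM among them), each sex, leaving out the nuclei highest in a gene, a fixed mixture of sub-clusters and keeping the clusters with myeloid genes, the last pair chosen after seeing the data. The members and gene lists were chosen with earlier results of these data known.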

Additional observations from a re-analysis of the deposited data

Results flagged for a closer look

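Fibroblast Igfbp5 moved in opposite directions between days in Ctrl and Tgfbr2-cKO. The log2 ratio of 21 to 7 dpi was 1.15 in Ctrl, with 1.36 in female and 1.04 in male nuclei, and -1.22 in Tgfbr2-cKO, with -2.44 and -0.66. The difference between these ratios was not tested, since each rests on 1 library per day. The Tgfbr2-cKO class also changed in makeup. At 7 dpi it held 135 myofibroblast-like and 114 leptomeningeal-like nuclei, and at 21 dpi 393 arachnoid-like nuclei and 320 of the Gabrg3 cluster. The part of this change in the ratio was not tested.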

How the results depend on the processing

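Each value rests on 1 library per group, so an animal or preparation effect cannot be told apart from the condition, and classes of few nuclei, such as Tgfbr2-cKO vessels, are limited by depth. The number of members past 2-fold in fibroblasts for ADWA11 at 7 dpi was 1, and 2 by the mean of CPM per nucleus, in female nuclei and in male nuclei. Between days in Tgfbr2-cKO it was 3, and 0 in male nuclei. Over the classes with enough nuclei, 2 for Tgfbr2-cKO at 7 dpi and between days and 5 otherwise, clustering on log-normalised counts gave 11 in place of 6 values past 2-fold for Tgfbr2-cKO at 7 dpi and 30 in place of 19 at 21 dpi, from 23 in place of 16 and 52 in place of 38 values that passed the minimum. In female and male nuclei alone the count at 21 dpi was 11 and 9, and between days in Ctrl 8 and 9 in place of 14. Without a minimum ADWA11 at 7 dpi had 9 in place of 4, and with a minimum of 30 UMIs it had 2. Between days in Tgfbr2-cKO the count of 5 became 3 with that minimum and 2 in male nuclei. Direction changed for Igfbp6 in other myeloid nuclei for ADWA11 at 21 dpi (-1.14, and 0.01 in female nuclei) and for Igfbp7 in leptomeningeal-like nuclei between days in Tgfbr2-cKO (1.30, and -0.41 without the 5 nuclei highest in Igfbp7 and -1.19 in female nuclei). In nuclei of 1 sex it also changed for Igfbp3 in the smaller endothelial-like cluster between days in ADWA11 (-1.38, and 0.13 in male nuclei), Igf1 in the fibroblast cluster led by Caln1 between days in Ctrl (1.08, and -0.07 in male), and Igfbp5 in oligodendrocyte precursors for Tgfbr2-cKO at 21 dpi (-1.22, and 0.89 in male) and between days in Ctrl (1.55, and -0.01 in male) and in proliferating fibroblast-like nuclei for ADWA11 at 7 dpi (1.02, and -0.10 in female). With a fixed mixture, chosen after seeing the data, Igfbp3 in ADWA11 fibroblasts between days went from -1.47 to 0.49, and 2 in place of 4 members were past 2-fold there. The cause of these changes was not tested. Of ratios past 2-fold, 112 of 115 stayed past it with TMM, 175 of 182 with median-of-ratios factors, 164 of 181 by the mean of CPM per nucleus, 173 of 180 without the extreme 5% of depth, 161 of 171 without called doublets, 158 of 168 without the 5 highest nuclei and 100 of 109 with log-normalised clustering. In female nuclei 109 of 119 did, in male nuclei 91 of 108, with a fixed mixture 30 of 40, and with the clusters with myeloid genes kept, also chosen after seeing the data, 18 of 20. No paired analysis was possible because the labels give groups no shared replicate numbers, and the ratios in female and male nuclei are given as values with no test.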
